A study of Arabidopsis thaliana with 8 samples.

Results

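LHCB4.1 (AT5G01530), LHCB4.2 (AT3G08940) and RCA (AT2G39730) are 3 nuclear genes of photosynthesis that mark green leaf tissue, and they were taken by name from the 13074 Arabidopsis genes that could be named on the ATH1 GeneChip array. Each was measured by 1 probe set, 251082_at for LHCB4.1, 258993_at for LHCB4.2 and 245061_at for RCA, and all 3 passed the filter on low signals that left 8399 genes for testing. RNA was taken from the shoot apex of plants grown in long days for 15 days, at 26°C or at 22°C. The genotypes were the as2-1 rh10-1 double mutant, the rh10-1 single mutant, the as2-1 single mutant and the wild type Col-0. as2-1 is a mutation in a nuclear repressor gene that acts in the upper (adaxial) side of the leaf, and rh10-1 is a recessive point mutation in a gene for a nucleolar RNA helicase, found in a screen in the as2-1 background. The comparison asked how far the signals of green tissue genes differed between the temperatures and between the genotypes, since the leaves that form at the shoot apex differ in shape between these plants.

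CP29, the product of the LHCB4 genes, is a chlorophyll-binding protein of photosystem II that sits between the outer light-harvesting trimers and the reaction centre core. Rubisco activase, the product of RCA, is an ATPase of the chloroplast stroma that pulls inhibitory sugar phosphates off Rubisco, the enzyme that fixes carbon dioxide, and the plant enzyme is known as heat-sensitive. Both kinds of gene are expressed strongly in leaf mesophyll and weakly in meristems, and so they serve as markers of greening tissue.

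There was 1 array for each genotype and temperature, so that no single ratio between conditions has a replicate check. Signals were linear intensities in arbitrary units that had been scaled between arrays, with a median of 69.7 to 79.9 over the 22746 probe sets of an array. The number of arrays limits the precision. Differences were tested by fitting genotype and temperature to the log2 signals of all 8 arrays with limma, which leaves 3 residual degrees of freedom, and a gene was called when its Benjamini-Hochberg adjusted p over the 8399 genes was under 0.05. All arrays of a temperature differ from those of the other in temperature and in anything that went with it, and so temperature, growth stage at harvest and array batch cannot be told apart.

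The antenna genes were among the brightest probe sets on every array. LHCB4.1, the first of the CP29 genes, had signals of 6697.5 in as2-1 rh10-1, 7840.2 in rh10-1, 8736.5 in as2-1 and 8495.9 in Col-0 at 26°C, against 7601.3 in as2-1 rh10-1, 5594.2 in rh10-1, 5607.2 in as2-1 and 5681.9 in Col-0 at 22°C. The double mutant was the lowest genotype at 26°C and the highest at 22°C, and apart from it the arrays of both temperatures did not overlap. In these signals its array at 22°C stood apart from the other 3 at that temperature, which lay between 5594.2 and 5681.9, but after quantile normalization the 4 arrays were spread out, where as2-1 rh10-1 had a log2 ratio to Col-0 of 0.14, rh10-1 had -0.35 and as2-1 had -0.17. The mean over the 4 genotypes was 7943 ± 912 at 26°C and 6121 ± 988 at 22°C (SD over 4 genotypes, which are no replicates of each other). LHCB4.1 was not called for temperature, with a log2 difference of 0.38 (26°C minus 22°C, SE 0.18, 95% interval -0.03 to 0.79, limma adjusted p = 0.128). After quantile normalization it was called, with a difference of 0.59 (adjusted p = 0.0208), and it was also called when either array of the double mutant was left out, with a difference of 0.57 in both cases (adjusted p = 0.0311 without the array at 26°C and 0.0278 without that at 22°C).

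LHCB4.2, which encodes a second form of CP29, was higher at 26°C. Its signals were 3583.8 in as2-1 rh10-1, 3580.9 in rh10-1, 5601.8 in as2-1 and 4073.9 in Col-0 at 26°C, against 3377.9 in as2-1 rh10-1, 1531.4 in rh10-1, 1863.2 in as2-1 and 2930.2 in Col-0 at 22°C. The 4 arrays at 26°C lay above the 4 at 22°C by a narrow gap of 0.08 on the log2 scale, which closed after centring each array on its median, and the double mutant differed little between the temperatures. The mean was 4210 ± 956 at 26°C and 2426 ± 871 at 22°C (SD, 4 genotypes), and the log2 difference of 0.84 corresponded to a 1.79-fold higher signal (SE 0.24 and 95% interval 0.29 to 1.39 on the log2 scale, limma adjusted p = 0.0235). Of the 8399 genes, 21.4% were called higher at 26°C and 17.1% lower, and so a call in either direction was common. The call was lost without an array of as2-1 at either temperature (log2 difference 0.60) and without one of rh10-1 (0.72), with adjusted p of 0.116 to 0.127, and without an intensity trend in the variance model (adjusted p = 0.0644).

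RCA was lower at 26°C in each genotype. Its signals were 4107.4 in as2-1 rh10-1, 4897.4 in rh10-1, 3617.7 in as2-1 and 3789.0 in Col-0 at 26°C, against 9245.0 in as2-1 rh10-1, 8650.7 in rh10-1, 6936.2 in as2-1 and 7119.9 in Col-0 at 22°C. The highest array at 26°C, that of rh10-1, was below the lowest at 22°C, that of as2-1, by 0.50 on the log2 scale. The mean was 4103 ± 567 at 26°C and 7988 ± 1137 at 22°C (SD, 4 genotypes). The signal fell by 0.96 on the log2 scale, or 1.95-fold (SE 0.15, 95% interval -1.30 to -0.62, limma adjusted p = 0.00151). The call held in each of the 8 fits that left out 1 array. Those fits came in pairs, since leaving out either array of a genotype removes that genotype from the temperature difference. The difference was then -0.98 without Col-0, -0.97 without as2-1, -1.01 without rh10-1 and -0.89 without as2-1 rh10-1. These are bulk shoot apices, in which fewer green cells and less transcript per cell cannot be told apart. The probe set reads the RCA gene as 1 transcript, and its splice forms were not measured.

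**Figure D1:**
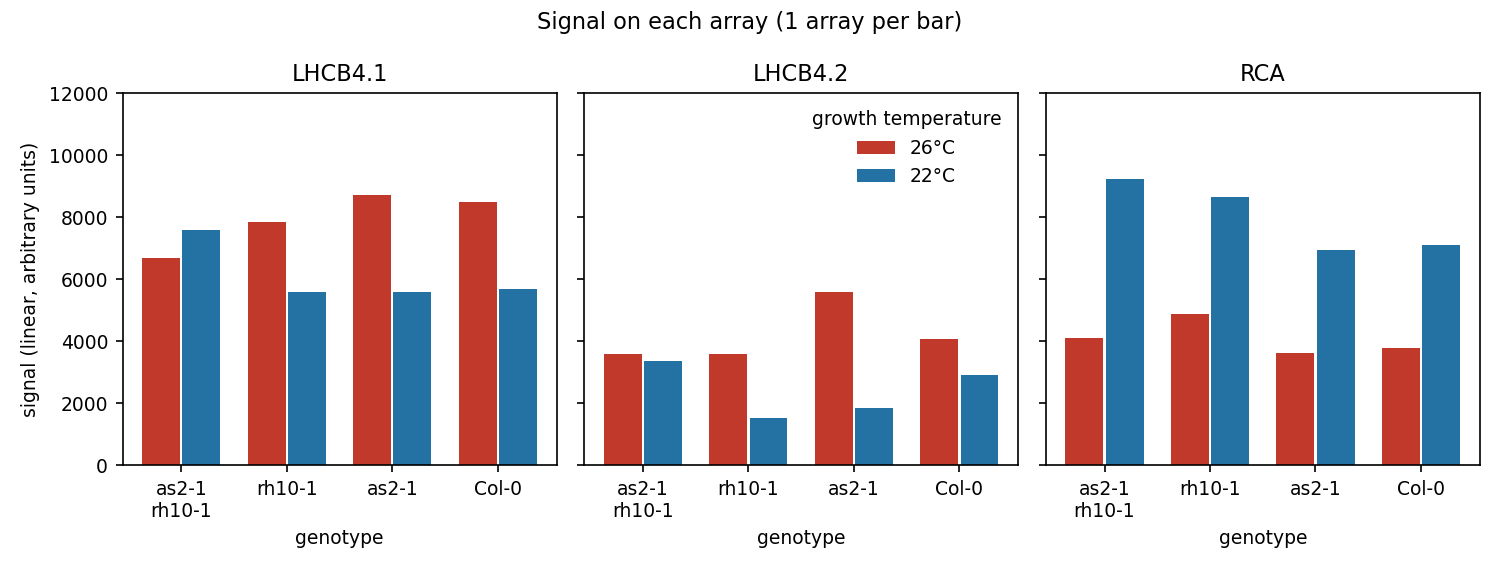
Signal of LHCB4.1, LHCB4.2 and RCA (linear scale, arbitrary units, 1 array per bar) in 4 genotypes at 26°C (red) and 22°C (blue). RCA was lower at 26°C in each genotype, LHCB4.2 was higher at 26°C in each genotype, and LHCB4.1 was lower at 26°C in as2-1 rh10-1 and higher at 26°C in the other 3; bars of different genes should not be compared in height, since probe sets differ in response.

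Within a genotype, the antenna genes and RCA moved in different directions in most plants. The log2 ratio of 26°C over 22°C for LHCB4.1 was -0.18 in as2-1 rh10-1, 0.49 in rh10-1, 0.64 in as2-1 and 0.58 in Col-0, and after quantile normalization the ratio in the double mutant turned to 0.10. For LHCB4.2 it was 0.09 in as2-1 rh10-1, 1.23 in rh10-1, 1.59 in as2-1 and 0.48 in Col-0. The double mutant thus had the smallest ratio of both antenna genes, and the ratio of LHCB4.2 reached 2-fold in rh10-1 and as2-1, where 15.1% and 13.9% of all genes were at least 2-fold higher.

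For RCA the same ratio was -1.17 in as2-1 rh10-1, -0.82 in rh10-1, -0.94 in as2-1 and -0.91 in Col-0. It reached 2-fold in the double mutant alone, where 14.6% of all genes were at least 2-fold lower. After centring it did so in as2-1 too (-1.03), and after quantile normalization in no genotype. These single-array ratios depended on the scaling. After quantile normalization the RCA ratio was -0.83 in as2-1 rh10-1, -0.77 in as2-1 and -0.88 in Col-0. The shift was largest in rh10-1, whose 26°C array had a median signal 0.17 above that of its 22°C array on the log2 scale. There, the RCA ratio was -0.99 after centring each array on its median and -0.40 after quantile normalization.

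The difference between the RCA ratio and the ratio of an antenna gene compares changes on the same pair of arrays, so that a scaling factor common to an array cancels. The RCA ratio less that of LHCB4.1 was -0.99 in as2-1 rh10-1, -1.31 in rh10-1, -1.58 in as2-1 and -1.49 in Col-0. Against LHCB4.2 it was -1.26 in as2-1 rh10-1, -2.05 in rh10-1, -2.53 in as2-1 and -1.39 in Col-0. RCA therefore changed unequally from both antenna genes in each of the 4 genotypes, without a test. Between the CP29 genes, the LHCB4.2 ratio less that of LHCB4.1 was 0.27 in as2-1 rh10-1, 0.74 in rh10-1, 0.95 in as2-1 and -0.10 in Col-0. Probe sets with names of this type were designed to match 1 gene each. LHCB4.1 and LHCB4.2 are close paralogs, and cross-hybridisation between them was not tested.

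The remaining CP29 gene, LHCB4.3 (AT2G40100), encodes a more diverged form of the protein and is not a member. Its signals were 160.9 in as2-1 rh10-1, 122.1 in rh10-1, 111.0 in as2-1 and 78.1 in Col-0 at 26°C, against 211.1 in as2-1 rh10-1, 237.9 in rh10-1, 389.8 in as2-1 and 376.4 in Col-0 at 22°C. The arrays at 26°C lay below those at 22°C without overlap. At 26°C the LHCB4.3 signal lay between the 49.6th percentile of its array (Col-0) and the 65.8th (as2-1 rh10-1), and whether it was detected there was not tested. LHCB4.3 fell by 1.36 on the log2 scale (SE 0.29, limma adjusted p = 0.00603), the opposite direction to LHCB4.2. Its ratio of 26°C over 22°C was -0.39 in as2-1 rh10-1, -0.96 in rh10-1, -1.81 in as2-1 and -2.27 in Col-0, so that both genotypes with rh10-1 differed less between the temperatures. The test of that difference, the rh10 by temperature term of a second limma fit described below, gave 1.36 on the log2 scale (95% interval 0.72 to 2.01, adjusted p = 0.0789) and was not called.

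**Figure D2:**
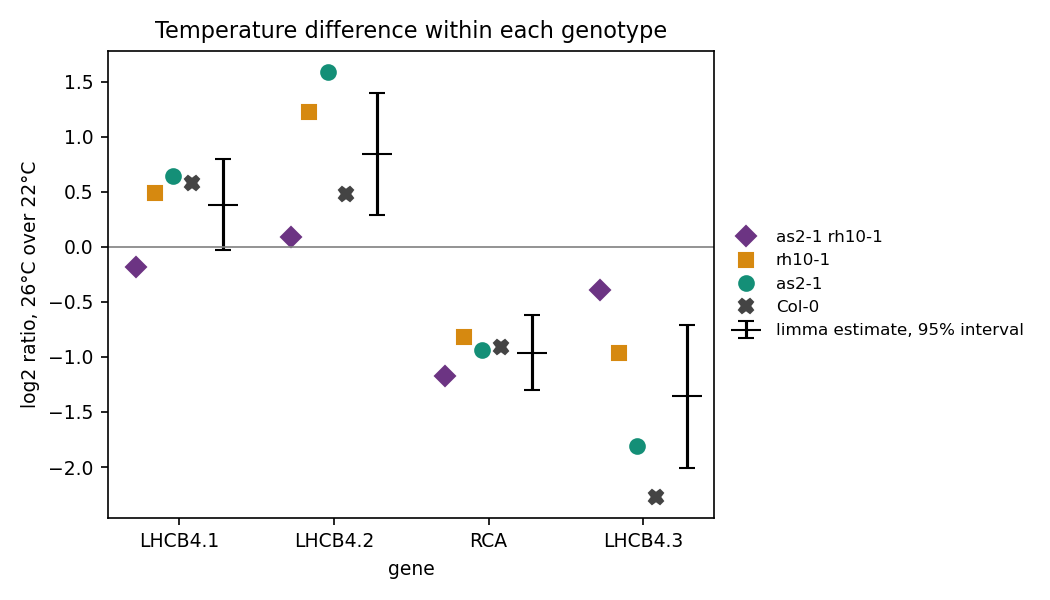
Log2 ratio of 26°C over 22°C for the 3 CP29 genes and RCA, with a symbol for each genotype (1 array at each temperature) and, in black, the limma estimate over the genotypes with its 95% interval. The interval of RCA lies between -1.30 and -0.62 and that of LHCB4.2 between 0.29 and 1.39, while that of LHCB4.1 includes 0; the double mutant has the smallest ratio of LHCB4.1 and LHCB4.2.

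The order of the 8 conditions showed the same contrast between the genes. Neighbours in the order were set against the residual SD of each gene in the fit, because there was no replicate spread. That SD is for the value of a single array, and a gap between arrays has a wider spread. It also holds any unequal change of the genotypes between the temperatures. The counts of gaps beyond it are therefore descriptive and no test. For RCA, the 4 arrays at 22°C came first, in the order as2-1 rh10-1, rh10-1, Col-0 and as2-1, followed at 26°C by rh10-1, as2-1 rh10-1, Col-0 and as2-1. Of the 7 gaps between neighbours, 4 exceeded its residual SD of 0.11, and 3 exceeded the larger moderated SD of 0.21 that limma used in its tests. Both genotypes with rh10-1 stood above both without it at each temperature, except that rh10-1 was level with Col-0 at 22°C after quantile normalization.

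For LHCB4.2, 1 of the 7 gaps exceeded the residual SD of 0.48, that of 0.65 between Col-0 and the lower as2-1 at 22°C, and 2 exceeded the moderated SD of 0.34. The order began with as2-1, Col-0, as2-1 rh10-1 and rh10-1 at 26°C, followed at 22°C by as2-1 rh10-1, Col-0, as2-1 and rh10-1. For LHCB4.1, 0 of the 7 gaps exceeded the residual SD of 0.27 or the moderated SD of 0.26, so that no neighbours in its order differed beyond that spread.

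The mutants were next set against Col-0 at the same temperature. For LHCB4.1, the log2 ratio to Col-0 at 26°C was -0.34 in as2-1 rh10-1, while rh10-1 had -0.12 and as2-1 had 0.04. At 22°C it was 0.42 in as2-1 rh10-1, while rh10-1 had -0.02 and as2-1 had -0.02. The single mutants thus differed from Col-0 by less than the residual SD of the gene, apart from rh10-1 at 22°C after quantile normalization (-0.35). The double mutant differed by more than that SD at both temperatures, with opposite signs, but after quantile normalization its ratio at 22°C was 0.14, within the SD. That SD is for the value of a single array, and a ratio between arrays has a wider spread. It also holds the double mutant's own unlike change between the temperatures. Passing the SD therefore does not show that the double mutant differed from Col-0.

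For LHCB4.2, the log2 ratio to Col-0 at 26°C was -0.18 in as2-1 rh10-1, while rh10-1 had -0.19 and as2-1 had 0.46. At 22°C it was 0.21 in as2-1 rh10-1, while rh10-1 had -0.94 and as2-1 had -0.65. Both single mutants were lower than Col-0 at 22°C, while the double mutant was not. Subtracting both single-mutant ratios from that of the double mutant left -0.46 at 26°C and 1.79 at 22°C.

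For RCA, the log2 ratio to Col-0 at 26°C was 0.12 in as2-1 rh10-1, while rh10-1 had 0.37 and as2-1 had -0.07. At 22°C it was 0.38 in as2-1 rh10-1, while rh10-1 had 0.28 and as2-1 had -0.04, and after quantile normalization the value for as2-1 rh10-1 was 0.15 and that for rh10-1 turned to -0.014. The same subtraction left -0.19 at 26°C and 0.13 at 22°C for RCA, against -0.27 and 0.46 for LHCB4.1. None of the 18 ratios of a member to Col-0 reached 2-fold in these scaled signals, where the share of all genes that did so in 1 direction or the other was 14.8% for as2-1 rh10-1, 8.69% for rh10-1 and 6.18% for as2-1 at 26°C. At 22°C it was 8.98% for as2-1 rh10-1, 10.2% for rh10-1 and 5.16% for as2-1.

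**Figure D3:**
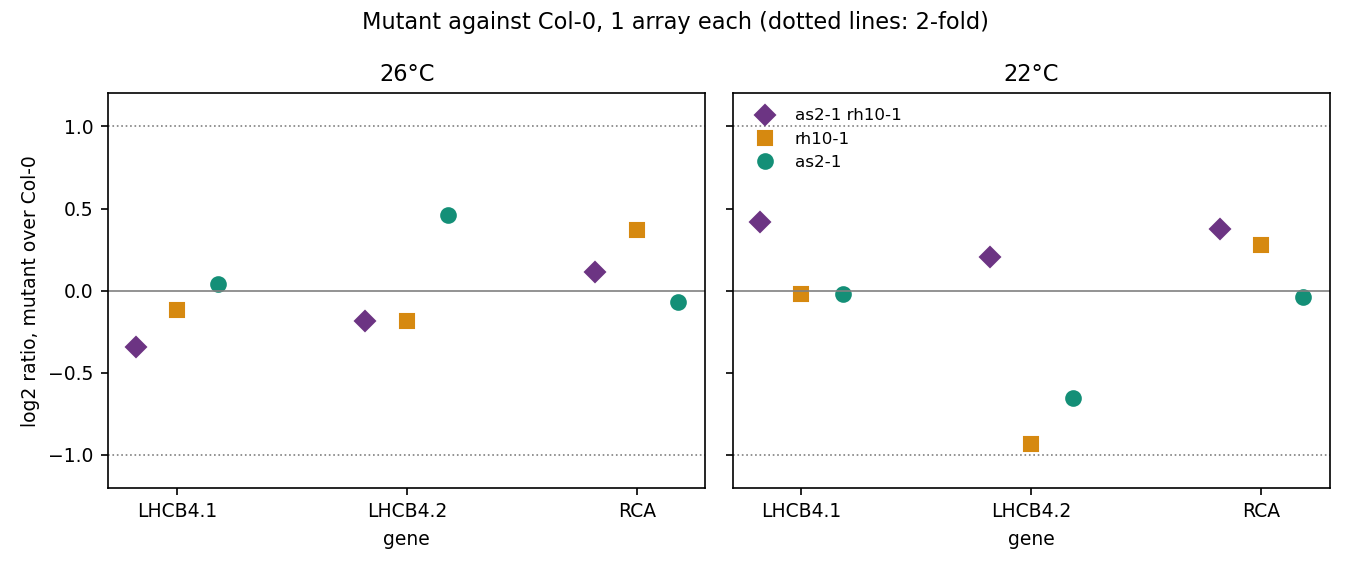
Log2 ratio of each mutant over Col-0 for the 3 genes at 26°C (left) and 22°C (right), each from 1 array of the mutant and 1 of Col-0, with dotted lines at 2-fold. None of the 18 ratios passed the lines, and the lowest was -0.94 for LHCB4.2 in rh10-1 at 22°C.

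In the fit over both temperatures, no genotype difference of the 3 genes was called. The as2-1 rh10-1 minus Col-0 difference was 0.04 for LHCB4.1 (95% interval -0.55 to 0.62, limma adjusted p = 0.980), 0.01 for LHCB4.2 (-0.77 to 0.79, adjusted p = 0.997) and 0.25 for RCA (-0.23 to 0.73, adjusted p = 0.812). The intervals of LHCB4.1 and LHCB4.2 averaged over opposite ratios at 26°C and 22°C. The rh10-1 minus Col-0 difference was -0.07 for LHCB4.1 (-0.65 to 0.52, adjusted p = 0.967), -0.56 for LHCB4.2 (-1.34 to 0.22, adjusted p = 0.738) and 0.33 for RCA (-0.15 to 0.80, adjusted p = 0.750). In as2-1 the difference was 0.01 for LHCB4.1, -0.10 for LHCB4.2 and -0.05 for RCA, with -0.88 as the lowest bound of their intervals.

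Of all 8399 genes, 0 were called for any genotype (0%), with 682 genes at an unadjusted p under 0.05 for as2-1 rh10-1, 595 for rh10-1 and 188 for as2-1. The lack of a call for the 3 genes was therefore shared with all genes, and their intervals reached down to -1.34 (LHCB4.2 in rh10-1) and up to 0.80 (RCA in rh10-1) on the log2 scale.

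A second fit held terms for as2-1, rh10-1, temperature and the change of each mutation's difference with temperature. It took the as2-1 by rh10-1 terms as 0 and left 2 residual degrees of freedom. For LHCB4.2 at 22°C, the double-mutant ratio less both single-mutant ratios was 1.79, far from that 0. The terms of LHCB4.2 therefore average over unlike differences. Its residual SD in this fit was 0.65, above the moderated SD of 0.35 behind its intervals. The rh10 by temperature term was -0.46 for LHCB4.1 (95% interval -1.16 to 0.25, limma adjusted p = 0.550), -0.38 for LHCB4.2 (-1.46 to 0.71, adjusted p = 0.767) and -0.07 for RCA (-0.72 to 0.58, adjusted p = 0.938). The as2 by temperature term was -0.31 for LHCB4.1 (adjusted p = 0.903), -0.01 for LHCB4.2 (adjusted p = 0.998) and -0.19 for RCA (adjusted p = 0.943). No member was called, beside 0.560% of all genes for rh10 by temperature and 0.0119% for as2 by temperature, which was the single gene BCAT4 of methionine chain elongation, named after its value was seen. The as2 term of LHCB4.2 turned to 0.067 after quantile normalization and 0.029 after centring, and the rh10 term of RCA to 0.21 after quantile normalization.

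The other genes of photosynthesis and chlorophyll synthesis were taken from lists of 131 genes, of which 23 were measured apart from the 3 members. Measured means that the annotation used here named a probe set for the gene and that it passed the filter. This annotation named 1 gene for 13513 of the 22746 probe sets. Listed genes that were not measured may therefore have an unnamed probe set on the array. Of these 23, 2 were called higher at 26°C, 10 were called lower and 11 were not called, with a median log2 difference of -0.30, against 0.06 over all genes tested, of which 21.4% were called higher and 17.1% lower. No gene of the 23 was called for a genotype or for a change of a genotype difference with temperature. The lists were chosen with earlier results of these data known, so that their counts are no independent support.

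In the light reactions, which use light to split water and drive electrons and protons across the thylakoid membrane, 8 of 65 listed genes were measured. PGRL1B, a protein of cyclic electron flow around photosystem I, was higher at 26°C by 1.09 on the log2 scale (limma adjusted p = 0.00691). PSB27, a lumenal factor of photosystem II assembly, was higher by 0.66 (adjusted p = 0.00992). These had the same direction as LHCB4.2, and LHCB4.3 was the 1 gene of the 8 called lower, so that the counts of 2 and 1 lay near the shares of all genes.

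The other 5 were not called. Their log2 differences were -0.01 for PSBW and -0.24 for PSBY, which are small subunits of photosystem II, -0.16 for PSAE1 and -0.17 for PSAN, which are subunits of photosystem I, and -0.33 for ATPC1, the gamma subunit of the chloroplast ATP synthase. The median of the 8 was -0.16, which turned to 0.08 after quantile normalization.

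In carbon metabolism, which holds the Calvin-Benson cycle, Rubisco assembly and photorespiration, 7 of 42 listed genes were measured beside RCA. Of these, 4 were called lower at 26°C and 0 higher, where 17.1% of all genes were called lower and 21.4% higher. The median was -0.96, the same as the difference of RCA itself. SBPASE, the sedoheptulose bisphosphatase of the regeneration phase of the cycle, had signals of 1004.5 in as2-1 rh10-1, 1180.9 in rh10-1, 1187.0 in as2-1 and 1290.2 in Col-0 at 26°C, against 2901.1 in as2-1 rh10-1, 2503.6 in rh10-1, 2802.6 in as2-1 and 2789.0 in Col-0 at 22°C. The signals at both temperatures were well separated, and SBPASE fell by 1.24 on the log2 scale (SE 0.15, limma adjusted p = 0.000467).

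BSD2, a chaperone of Rubisco assembly, fell by 1.17 (adjusted p = 0.000541), PGK2, a phosphoglycerate kinase, by 1.09 (adjusted p = 0.00134) and GLDT, the T-protein of glycine decarboxylase in photorespiration, by 0.96 (adjusted p = 0.00106). The genes not called were PRK, the phosphoribulokinase that makes the substrate of Rubisco (-0.23), HPR1, the hydroxypyruvate reductase of photorespiration (0.38), and GLYK, its glycerate kinase (-0.30). The 4 measured genes of the Calvin-Benson cycle, RCA included, all had a difference below 0, of which that of PRK was not called.

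In chlorophyll synthesis, 8 of 24 listed genes were measured, with a median of -0.75. Of these, 5 were called lower at 26°C and 0 higher, where 17.1% of all genes were called lower and 21.4% higher. CHLI2, a subunit of the magnesium chelatase at the branch to chlorophyll, fell by 1.42 on the log2 scale (limma adjusted p = 0.00302). HEME2, a uroporphyrinogen decarboxylase, fell by 1.33 (adjusted p = 0.00119), GSA1, which makes the precursor 5-aminolevulinic acid, by 1.13 (adjusted p = 0.00405) and HEMB1, which joins 2 molecules of that precursor, by 0.77 (adjusted p = 0.0119). The 3 not called lay between -0.17 and 0.30. After quantile normalization 1 gene of the 8 was called higher.

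**Figure D4:**
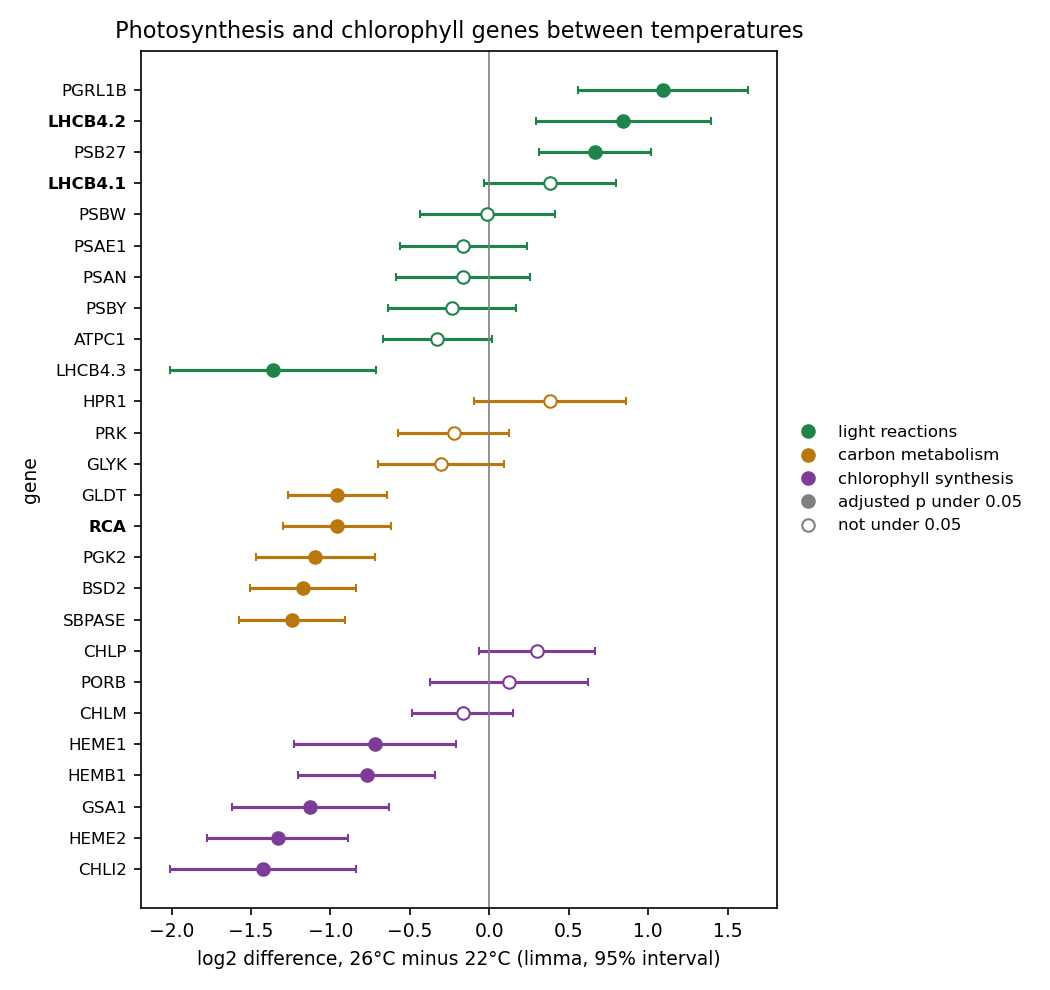
Log2 difference between 26°C and 22°C (limma, with 95% intervals) for the 26 measured genes of the light reactions, carbon metabolism and chlorophyll synthesis, members in bold, with filled symbols for an adjusted p under 0.05. The genes with carbon and chlorophyll roles that were called all lie to the left of 0, and those of the light reactions lie on both sides, with LHCB4.2 at 0.84 and LHCB4.3 at -1.36.

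Markers of other cell types were examined for changes in tissue makeup beside these values. Dividing cells were marked by 2 measured genes of 8, the Aurora kinase gene AUR1 and the replication licensing gene PRL, whose summed signal was 253.9 to 437.3 at 26°C and 873.2 to 1132.1 at 22°C without overlap. AUR1 fell by 1.81 and PRL by 1.59 on the log2 scale (limma adjusted p = 0.00187 and 0.000305). Their ratios to Col-0 at 26°C were unlike, which the sum hides. The double mutant had a log2 ratio of 1.06 for AUR1 and -1.06 for PRL. For the rh10-1 single mutant these were 0.99 and -0.15, while as2-1 had negative ratios of both genes (-0.55 and -0.59). At 22°C the ratios of both genes lay between -0.43 and 0.05. Young leaf tissue was marked by 2 of 7, YAB3 and YAB5 of the lower (abaxial) leaf side, with a summed signal of 356.6 to 505.8 at 26°C and 555.4 to 753.9 at 22°C. YAB3 fell by 0.63 (adjusted p = 0.0109), and YAB5 had a difference of -0.30 that was not called. YAB5 was above Col-0 in as2-1 rh10-1 and as2-1, with log2 ratios of 1.80 and 1.49 at 26°C and 1.45 and 1.02 at 22°C. YAB3 did not share this, with -0.38 and -0.47 at 26°C and 0.13 and -0.07 at 22°C. The sum therefore mixes a genotype difference of YAB5 with the temperatures.

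The meristem marker CLV3, 1 of 7, had signals of 0.9 to 11.8 at 26°C and 2.5 to 26.8 at 22°C, and the root hair marker EXPA7, 1 of 4, had 1.0 to 5.7 at 26°C and 3.6 to 11.6 at 22°C. Both lay below the filter. CLV3 was the only listed meristem gene with a named probe set, so that meristem tissue in the samples could not be judged. The signals of the 3 green tissue genes were above the 96th percentile of their array in each of the 24 values, which any green tissue could give, so that they do not check the shoot apex label. The clock gene GI, the only 1 of 10 measured, was higher at 26°C by 1.51 (limma adjusted p = 0.0213), with 103.6 in as2-1 rh10-1, 183.8 in rh10-1, 420.4 in as2-1 and 482.8 in Col-0 at 26°C, against 109.3 in as2-1 rh10-1, 103.1 in rh10-1, 63.3 in as2-1 and 81.7 in Col-0 at 22°C. Its log2 ratio of 26°C over 22°C was -0.08 in as2-1 rh10-1, 0.83 in rh10-1, 2.73 in as2-1 and 2.56 in Col-0. The rh10 by temperature term of GI was called (-2.27, 95% interval -3.04 to -1.50, limma adjusted p = 0.0275). That call was lost without an intensity trend and in each fit that left out an array at 22°C. The part of cell makeup or of the time of day in the differences of LHCB4.2 and RCA was not tested.

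The genes whose pattern was most like each member were found by the root mean square difference between log2 signals over the 8 arrays, each gene centred on its own mean, among 8398 genes. The nearest to LHCB4.1 was psaI, a subunit of photosystem I encoded in the chloroplast genome, at 0.070, against a root mean square of 0.26 for LHCB4.1 itself. Like LHCB4.1, psaI was lowest at 26°C and highest at 22°C in as2-1 rh10-1, with 1020.7 in as2-1 rh10-1, 1342.2 in rh10-1, 1495.3 in as2-1 and 1320.5 in Col-0 at 26°C, against 1238.0 in as2-1 rh10-1, 922.4 in rh10-1, 1000.8 in as2-1 and 928.6 in Col-0 at 22°C. The next 4 were AT1G18700, AT3G07140, AT2G26780 and AT4G29790, up to 0.087.

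The nearest to LHCB4.2, whose own root mean square was 0.57, were ENGase85B (0.19), AT1G09730, AT1G19835, AT5G18630 and AT3G05990 (0.21). Those nearest to RCA, with 0.51 of its own, were AT3G22210 (0.11), AT3G18760, AT4G30825, AT4G10320 and AT1G16740 (0.12). LHCB4.2 was only the 2715th nearest gene to LHCB4.1, at 0.37, and LHCB4.1 the 389th nearest to LHCB4.2. RCA lay at 0.70 from LHCB4.1 and 1.00 from LHCB4.2, and ranked 6601st and 7025th in nearness to them. After quantile normalization, 0, 1 and 0 of the 5 nearest genes of LHCB4.1, LHCB4.2 and RCA stayed among the nearest 5, so that these names rest on the scaling.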

How the data were processed

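Per the labels and the study's methods, RNA from shoot apices was labelled with biotin and hybridised to 8 ATH1 arrays, and the authors computed the deposited signal intensity of each probe set with GCOS on a linear scale. The scaling target is not given in the sources used here, and the trimmed means of 198.1 to 198.4 (2% cut at each end) show a common level. The 9 signals listed at 0 were set to 0.1 before log2. Detection calls were not used here.

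Of 22746 probe sets, 13230 with 1 gene in the platform annotation and a name not ending in _s_at or _x_at were used, and the brightest represented a gene. Genes above the 40th percentile of an array in at least 1 array were tested with limma 3.58.1 in R 4.3.3 (eBayes with an intensity trend). Summaries used Python 3.11.15, numpy 2.4.6, pandas 2.3.3 and matplotlib 3.10.9. The fits were tested on simulated data.

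The members and gene lists were chosen with earlier results of these data known. Named genes were the members, the 5 genes nearest to each, and of each list all measured genes up to 4, or otherwise the 4 with the largest temperature difference. Of 20 lists, 9 had no gene past the filter, most of them because no listed gene had a named probe set. Other settings tried were scaling by quantiles or to each array's median, raising low signals to the 20th percentile, dropping the filter or moving it to the median, keeping ambiguous probe sets that name 1 gene, averaging a gene's probe sets, a variance model with no intensity trend, and leaving out 1 array at a time. Sequences of the members were not used here.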

Additional observations from a re-analysis of the deposited data

Results flagged for a closer look

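The LHCB4.1 signal of as2-1 rh10-1 at 22°C (7601.3) stood apart from those of the other 3 genotypes at that temperature (5594.2 in rh10-1, 5607.2 in as2-1 and 5681.9 in Col-0). Its gap to the nearest genotype on the log2 scale was 0.949 of the range over the 4 arrays, above the critical value of Dixon's test at the 95% level. This held only in the signals as deposited, since the same share was 0.764 after centring each array on its median and 0.291 after quantile normalization, both below that value. The 4 arrays were 4 genotypes and not replicates, 9 such groups of 4 values were examined over the 3 genes, and chance passes about 1 in 20 groups. In the deposited signals, LHCB4.2 and RCA had no such array at either temperature.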

How the results depend on the processing

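RCA was called lower at 26°C under each of the 8 alternatives (log2 difference -1.06 to -0.72, adjusted p 0.00105 to 0.0126) and LHCB4.2 higher under 7 of 8 (0.75 to 1.08), the exception being the fit without an intensity trend (0.84, adjusted p = 0.0644). Only quantile normalization and centring altered the signals of the 3 genes. The other alternatives left the differences at -0.96 for RCA and 0.84 for LHCB4.2, and changed only their SE and adjusted p. LHCB4.1 was called under quantile normalization alone (0.59). No genotype or genotype by temperature difference of the 3 genes was called under an alternative, and several near 0 changed sign. Under quantile normalization these were LHCB4.1 in as2-1 rh10-1 (-0.079) and in as2-1 (-0.041), LHCB4.2 in as2-1 rh10-1 (-0.018) and as2 by temperature (0.067), RCA rh10 by temperature (0.21), and the single-array ratios of LHCB4.1 at 26°C over 22°C in as2-1 rh10-1 (0.10) and of RCA in rh10-1 over Col-0 at 22°C (-0.014). Under centring they were LHCB4.1 in rh10-1 (0.013), LHCB4.2 as2 by temperature (0.029), and the single-array ratios to Col-0 at 22°C of LHCB4.1 in rh10-1 (0.11) and as2-1 (0.042) and of RCA in as2-1 (0.023). The cause was not tested. Genes called for rh10 by temperature numbered 25 higher and 22 lower, against 12 and 14 with quantile normalization, 10 and 13 with no filter, 0 and 0 with no intensity trend, and 35 lower after centring. The 1 gene called for as2 by temperature became 0 without an intensity trend. Genes at least 2-fold apart numbered 210 to 1346 per ratio and direction, 1175 to 2695 with no filter and 96 to 1138 with the filter at the median.

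Leaving out 1 array at a time moved the temperature difference over 0.29 to 0.57 for LHCB4.1, 0.60 to 1.096 for LHCB4.2 and -1.01 to -0.89 for RCA. Either array of a genotype, when left out, gave the same temperature difference, so that these values vary by genotype and not by array. The as2-1 rh10-1 difference ran over -0.34 to 0.41 for LHCB4.1 and -0.50 to 0.52 for LHCB4.2, that of rh10-1 over -0.20 to 0.064 for LHCB4.1, and that of as2-1 over -0.16 to 0.18 for LHCB4.1 and -0.59 to 0.40 for LHCB4.2. For LHCB4.2, as2 by temperature ran over -0.91 to 0.88 and rh10 by temperature over -1.27 to 0.52, and for RCA rh10 by temperature ran over -0.16 to 0.022. These terms had no stable sign. The genes called for temperature numbered 1180 to 1801 higher and 874 to 1459 lower, with the fewest without an array of as2-1. Calls for as2-1 rh10-1 numbered 0 to 9 higher and 0 to 34 lower, for rh10-1 and for as2-1 0 to 2 higher, for as2 by temperature 0 to 59 higher and 0 to 134 lower, and for rh10 by temperature 0 to 270 in each direction. Of the 23 other photosynthesis and chlorophyll genes, 1 to 3 were called higher and 8 to 11 lower. A genotype with an array left out was assumed to vary like the others. The labels give no replicate numbers, so that no further block was fitted, and the genotype term already pairs the temperatures within a genotype.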

Other observations

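The 8 measured chlorophyll synthesis genes had ratios to Col-0 of the same sign in the double mutant at 26°C. In as2-1 rh10-1 over Col-0 at 26°C, 8 of 8 had a log2 ratio below 0, with a median of -0.81, where 4334 of all 8399 genes were below 0 and the median was -0.03. CHLI2 had a signal of 101.3 in as2-1 rh10-1, 175.5 in rh10-1, 163.8 in as2-1 and 249.4 in Col-0 at 26°C, and GSA1 had 280.9 in as2-1 rh10-1, 567.1 in rh10-1, 523.3 in as2-1 and 636.1 in Col-0. Their log2 ratios in the double mutant were -1.30 and -1.18, the lowest of the 8. At 22°C, 7 of 8 genes had a ratio above 0 in as2-1 rh10-1, with a median of 0.21, or 6 of 8 after quantile normalization and 8 of 8 after centring. The group at 26°C was below 0 in 8 of 8 under both of these scalings, with medians of -0.86 and -0.75. Each ratio rests on 1 array of as2-1 rh10-1 and 1 of Col-0 without a replicate, and the pattern was noticed in the data and not tested.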
